A study of Mus musculus with 10 samples.

Results

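Galectins are lectins, proteins that bind sugars ending in galactose on the surface of cells and in the matrix around them. They are made in the cytosol, leave the cell without a signal peptide, and cross-link glycoproteins outside it, while inside the cell they can bind the sugars exposed on damaged lysosomes and endosomes. In nervous tissue, galectin-1 is known from neurons, astrocytes and vessels, and galectin-3 is known from activated microglia and macrophages. Galectin-9 is studied mainly in immune and vascular cells, and galectin-8 is made in many tissues. Galectin-4 is known chiefly from the epithelium of the gut. The 5 genes described here are *Lgals1*, *Lgals3*, *Lgals4*, *Lgals8* and *Lgals9*, and they were picked by symbol from the 25232 genes of the deposited table, where all 5 were listed.

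The data come from RNA-sequencing of the spinal cord of female C57BL/6 mice at 90 days of age, with 5 wild type (WT) mice and 5 SOD1 G93A mice. In the SOD1 G93A line, many inserted copies of human *SOD1* express a mutant superoxide dismutase known from inherited amyotrophic lateral sclerosis, and littermates that lacked them served as WT. The methods name the lumbar region, which the labels do not. The values used here are the base means, which are read counts divided by a size factor of each library and averaged by the authors over all 10 libraries. Because both genotypes had 5 libraries, each base mean is the midpoint of the SOD1 G93A and WT means. The levels below therefore describe the spinal cord of both genotypes together, with no spread between mice, and the SOD1 G93A and WT mice are not compared here. Base means summed to 22158933 over all genes, and the depth of each library is unknown here.

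The 5 genes share a pattern of residues in the sugar-binding core, and the stretches that encode it show how they differ. Galectin-1 has 1 carbohydrate recognition domain and works as a dimer. Galectin-3 has 1 such domain behind a long flexible tail, and galectins 4, 8 and 9 carry a pair of domains joined by a linker. In the GENCODE annotation of GRCm38, the build that mm10 denotes, the transcript with the longest coding sequence was taken for each gene. A stretch was searched that encodes histidine, any residue, asparagine, proline and arginine, then 8 to 30 residues, then tryptophan, glycine, any residue and glutamate, in the reading frame. The pattern was set on the galectins' own sequences. It was found once in *Lgals1* and *Lgals3* and at 2 places in *Lgals4*, *Lgals8* and *Lgals9*. The 8 stretches are printed 5′ to 3′ in the direction of the coding strand, with the codons of the first 5 and the last 4 residues in capitals:
Lgals1: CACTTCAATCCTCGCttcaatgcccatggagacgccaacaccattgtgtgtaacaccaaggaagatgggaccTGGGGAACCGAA
Lgals3: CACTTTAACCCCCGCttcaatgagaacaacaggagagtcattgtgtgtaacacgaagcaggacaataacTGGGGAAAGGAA
Lgals4, first domain: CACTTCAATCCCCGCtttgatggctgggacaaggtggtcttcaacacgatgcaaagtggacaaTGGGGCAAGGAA
Lgals4, second domain: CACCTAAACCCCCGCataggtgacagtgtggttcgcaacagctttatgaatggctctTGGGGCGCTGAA
Lgals8, first domain: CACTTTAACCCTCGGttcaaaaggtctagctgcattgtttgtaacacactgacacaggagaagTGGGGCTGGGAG
Lgals8, second domain: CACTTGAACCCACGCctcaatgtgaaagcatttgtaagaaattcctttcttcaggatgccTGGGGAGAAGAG
Lgals9, first domain: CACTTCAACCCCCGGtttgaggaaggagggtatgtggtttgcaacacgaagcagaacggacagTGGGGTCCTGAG
Lgals9, second domain: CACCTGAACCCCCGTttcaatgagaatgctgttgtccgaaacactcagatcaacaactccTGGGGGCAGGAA

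Each of the 8 stretches lay within a single exon. The stretch of *Lgals1* was at chr15:78929676-78929759 on the plus strand, in exon 3 of 4. That of *Lgals3* was at chr14:47384642-47384722 on the plus strand, in exon 5 of 6. In *Lgals4*, on the plus strand, the stretches were at chr7:28835879-28835953 in exon 3 and at chr7:28841191-28841259 in exon 9 of 10. In *Lgals8*, on the minus strand, they were at chr13:12454813-12454887 in exon 4 and at chr13:12447195-12447266 in exon 9 of 10. In *Lgals9*, also on the minus strand, they were at chr11:78973066-78973140 in exon 3 and at chr11:78965743-78965814 in exon 10 of 11. In every gene with a pair of domains, one stretch was thus encoded in exon 3 or 4 and the other in the exon before the last, which is also where the single stretch of *Lgals1* and *Lgals3* lay.

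The part between the capitals differed in length, so that the whole stretch ran from 69 bases in the second domain of *Lgals4* to 84 bases in *Lgals1*. In each part in capitals, the pattern left only the position of any residue free, so much of the identity below was set by the search. Over the 27 bases in capitals, *Lgals3* and the first domain of *Lgals4* were the closest pair, with 24 identical bases (88.9%). The most distant pair was *Lgals1* and the second domain of *Lgals9*, with 18 identical bases (66.7%). Within a gene, the first and second domains shared 21 of the 27 bases in *Lgals4*, and 20 in both *Lgals8* and *Lgals9*. Among 21816 protein-coding genes with a complete coding sequence, 7 (0.0321%) encoded the pattern. These were the 5 genes described here, *Lgals2* and *Lgals7*. The pattern was absent from *Lgals12*, *Lgalsl* and *Grifin*, which belong to the same family.

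The gene models differed in size. *Lgals1*, at chr15:78926725-78930465, was the most compact, with a coding sequence of 135 codons and 903 bases of exon when the exons of all its transcripts are merged. *Lgals3*, at chr14:47367751-47386160, had 264 codons and 1858 bases of exon. *Lgals4*, at chr7:28833854-28841708, had 326 codons and 2315 bases of exon. The coding sequence of *Lgals8* was of similar length, with 325 codons, but the gene, at chr13:12439415-12464944, had 3688 bases of exon in 10 annotated transcripts. *Lgals9*, at chr11:78962974-78984946, had 353 codons and 2137 bases of exon. A longer transcript gives more reads at the same number of molecules, and levels of different genes are therefore set side by side as the base mean per kilobase (kb) of exon.

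**Figure D1:**
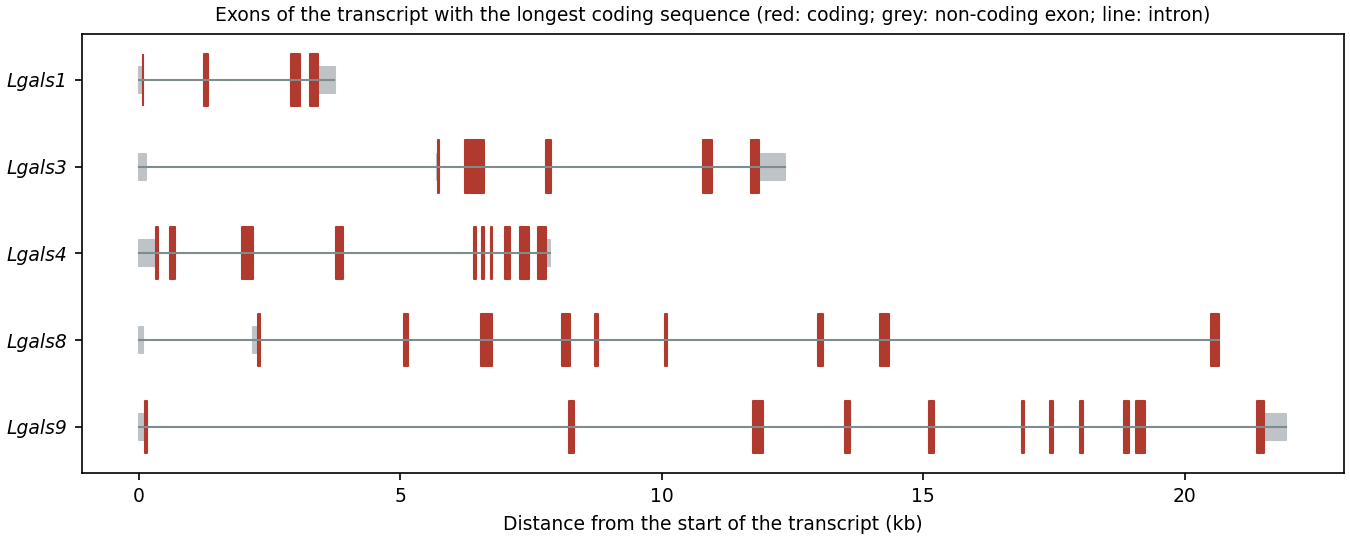
Exons of the transcript with the longest coding sequence of each galectin, drawn to scale by distance from the transcript's start in kb, with coding parts in red, non-coding exon parts in grey and introns as a line. *Lgals1* has 4 exons, *Lgals3* has 6, and the genes with a pair of domains have 10 or 11.

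Per kb of exon, *Lgals1* had the highest level of the 5 genes and *Lgals4* by far the lowest, and which of *Lgals1* and *Lgals8* came first depended on the length used. The base mean of *Lgals1* was 725 normalized counts, which gave 803 normalized counts per kb of exon. That level was above 93.9% of the genes with a base mean above 0 and a known exon length, and 12.7 times their median of 63.5. *Lgals1* held 55.4% of the summed level per kb of exon of the 5 galectins, but 27.1% of their summed base mean, of which *Lgals8* held 53.5%.

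*Lgals8* came next, with a level of 389 normalized counts per kb of exon, above 85.7% of genes. Its base mean, before division by length, was 1435 normalized counts, the highest of the 5 and above that of 81.6% of genes with a base mean above 0. *Lgals1* was 2.06 times higher than *Lgals8* per kb of exon and 1.22 times higher per kb of coding sequence. It was also 1.80 times higher per kb of the longest transcript with a complete coding sequence, which had 800 bases in *Lgals1* and 2843 in *Lgals8*. The order turned per kb of the transcript with the longest coding sequence, which in *Lgals8* had 1148 bases, and *Lgals8* was then 1.38 times higher than *Lgals1*. The base mean of *Lgals8* was 1.98 times that of *Lgals1*. Which transcripts of *Lgals8* the reads came from is unknown here, so *Lgals1* and *Lgals8* cannot be ordered. The exons of *Lgals8* overlapped those of *Heatr1*, on the opposite strand, over 155 bases. Of the 3880 different windows of 100 bases, the length of a read, in the transcripts of *Lgals8*, 57 (1.47%) also occurred in *Heatr1* transcripts on either strand. The libraries were stranded, but the sources used here do not say whether the counting used the strand or how it treated reads in the overlap. A small part of the reads counted for *Lgals8* may thus belong to *Heatr1*, or a small part of its own reads may be missing. The other 4 galectins had 0 such windows in common with annotated transcripts of genes outside the 5. Windows in common among the 5 themselves were not counted. *Lgals6*, a relative of *Lgals4*, has no transcript in this annotation, so *Lgals4* could not be compared with it.

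*Lgals9* and *Lgals3* lay close together in the middle. *Lgals9* had a base mean of 281 and a level of 131 normalized counts per kb of exon, above 64.1% of genes. *Lgals3* had a base mean of 226 and a level of 122 normalized counts per kb of exon, above 62.6% of genes. The level of *Lgals9* was 1.08 times that of *Lgals3* per kb of exon. Per kb of coding sequence the order turned, with *Lgals3* at 286 and *Lgals9* at 265 normalized counts per kb. With a single pooled value for each gene, these neighbours cannot be ordered. Per kb of exon, both were about 2 times the median gene, at 1.92 for *Lgals3* and 2.07 for *Lgals9*. By base mean, *Lgals3* at 226 was below the median of 247 and *Lgals9* at 281 above it.

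*Lgals4* stood apart from the other 4, with a base mean of 13.3 and a level of 5.73 normalized counts per kb of exon. It was 21.3 times lower than *Lgals3*, the next gene in the order, and 140 times lower than *Lgals1*. Its level was above that of 24.1% of genes. Over all 10 libraries together, *Lgals4* had 133 normalized counts, against 2263 for *Lgals3* and 14346 for *Lgals8*. *Lgals4* held 0.395% of the summed level per kb of the 5 galectins.

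**Figure D2:**
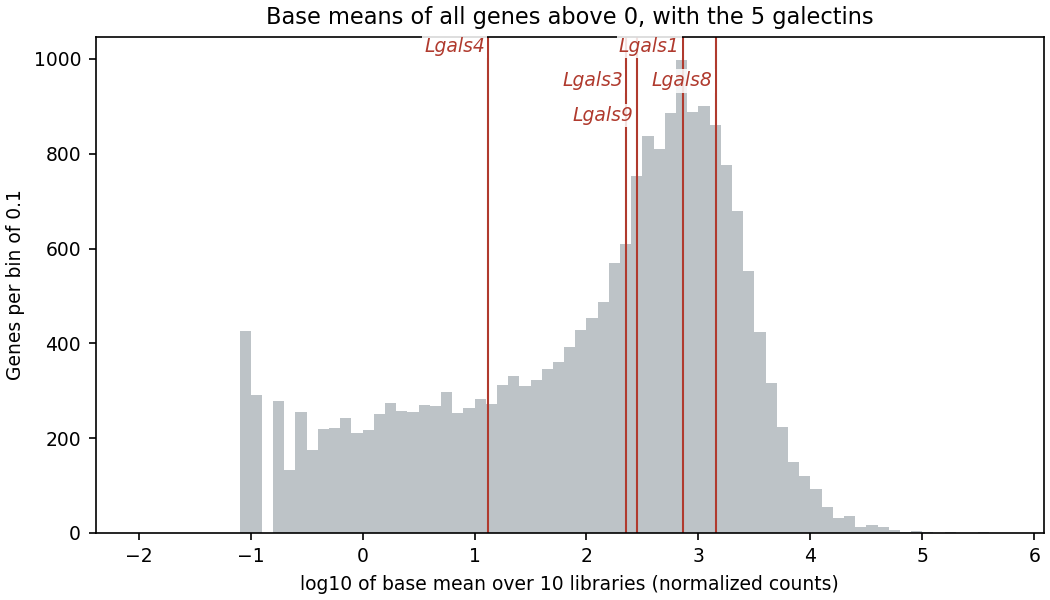
Number of genes by log10 of the base mean over 10 libraries, for the 20973 genes with a base mean above 0, with red lines at the 5 galectins. *Lgals8* and *Lgals1* lie at the peak of the distribution, *Lgals9* and *Lgals3* on its left shoulder near the median of 247 normalized counts, and *Lgals4* in the low tail.

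The table listed 7 more genes that belong to the galectin family or carry its name. The highest was *Lgalsl*, a galectin-like gene, with 334 normalized counts per kb of exon, between *Lgals8* and *Lgals9*. *Lgals3bp*, whose secreted glycoprotein is a ligand of galectin-3 and not a galectin itself, was at 285 normalized counts per kb. *Lgals2*, a galectin of the digestive tract, was at 63.5 normalized counts per kb, close to the median gene.

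Below these, *Grifin*, known from the eye lens, was at 15.7 and *Lgals12*, known from fat tissue, at 3.39 normalized counts per kb of exon, so that *Lgals4* lay between them. *Lgals7*, a galectin of keratinocytes, was at 0.852 normalized counts per kb. *Lgals6* had a base mean of 0.0926, or 0.926 normalized counts over all 10 libraries, and no exon length in the annotation used here. *Lgals6* is a close copy of *Lgals4*, and the authors kept only uniquely mapped reads. If the genome they aligned to held both copies, reads that match both genes may be missing from *Lgals4*. The annotation used here has no transcript of *Lgals6*, and whether their genome held that copy is unknown here. The low levels of both genes are therefore uncertain.

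**Figure D3:**
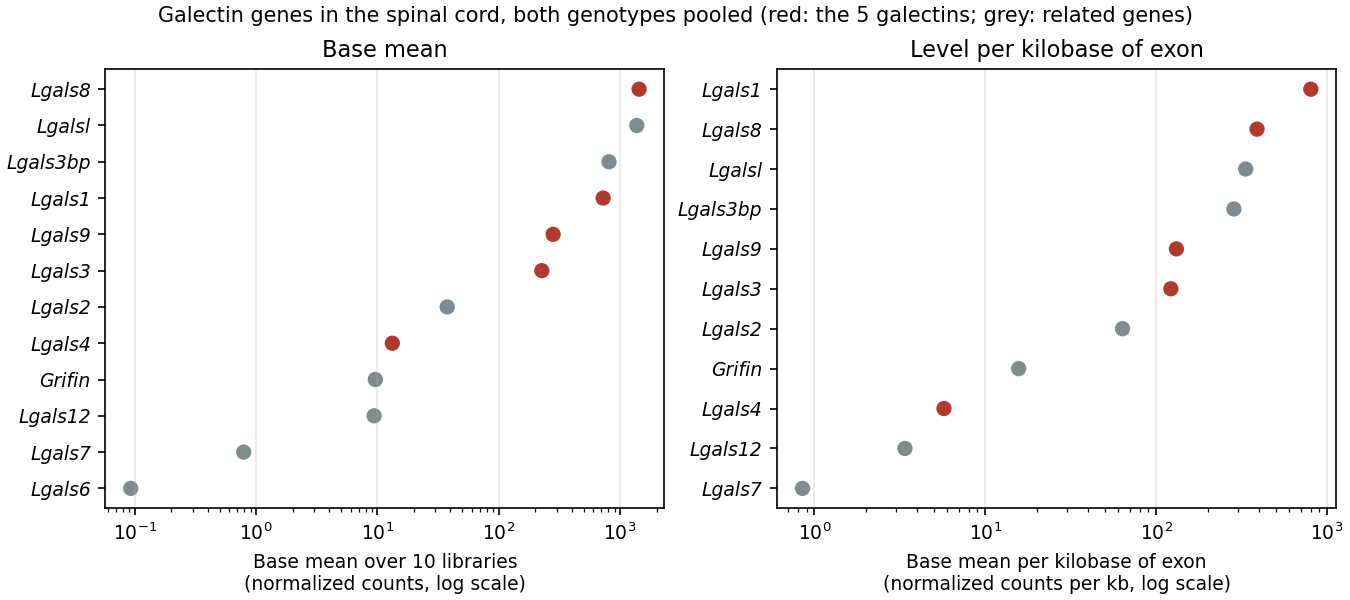
Base mean (left, normalized counts) and base mean per kb of exon (right), both on log scales, for the 5 galectins in red and for 7 related genes (left) or 6 with a known exon length (right) in grey. *Lgals8* leads the left panel at 1435 and *Lgals1* the right panel at 803, while *Lgals4* lies among the low related genes in both.

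The spinal cord is a mixture of cells, and in bulk samples fewer cells of a type and less RNA per cell cannot be told apart. The labelled tissue was checked against marker genes, and these also give a scale for the galectins. Neurons, astrocytes and oligodendrocytes were represented by high levels per kb of exon, among them *Nefl*, a neurofilament gene, at 14045, *Gfap*, an astrocyte filament gene, at 13345 and *Mbp*, a myelin gene, at 37740 normalized counts per kb. All 4 oligodendrocyte markers, 3 of 4 astrocyte markers and 2 of 4 neuronal markers lay above *Lgals1* per kb of exon. By base mean, all markers of these cell types lay above *Lgals1*.

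The 6 markers of microglia and macrophages were lower, from 72.2 for *Aif1* to 527 for *Csf1r*, the receptor of a growth factor of these cells, with a median of 218 normalized counts per kb. *Lgals3* and *Lgals9* lay within that range, each below 5 of the 6 markers and above *Aif1*. *Lgals8* also lay within it, below *Csf1r* alone, and *Lgals1* lay above all 6. By base mean, *Csf1r* at 3041, *Cx3cr1* at 1278 and *Itgam* at 757 were above *Lgals1* at 725. The microglial receptor gene *P2ry12* was 1.88 times higher than *Lgals3* and *Cx3cr1* was 2.33 times higher. These values say nothing of which cells made each galectin.

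The motor neuron markers ran from 11.5 for the transcription factor gene *Isl1* and 16.6 for *Mnx1* to 156 for *Chat* and 410 for *Slc5a7*, both needed for acetylcholine signalling, in normalized counts per kb. *Lgals3* and *Lgals9* were each exceeded by *Chat* and *Slc5a7*, and *Lgals4* was exceeded by all 4. The endothelial markers ran from 101 for *Pecam1* to 501 for *Cldn5*. By base mean, all 3 endothelial markers, from *Pecam1* at 631 to *Flt1* at 2253, were above *Lgals3* at 226 and *Lgals9* at 281.

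Some markers of tissue outside the cord were also present. The skeletal muscle genes *Acta1* and *Ckm* were at 163 and 36.9 normalized counts per kb. All 3 T cell markers lay between 0.360 and 1.38, below every one of the 5 galectins. Of the neutrophil markers, *Ly6g* was at 0.616 and *S100a8* at 52.1. The keratinocyte genes *Krt5* and *Krt14* were at 0.266 and 1.63. Among the markers of intestinal epithelium, the tissue for which *Lgals4* is best known, *Vil1* was at 4.74 and *Krt20* at 0.737, and *Cdx2* was listed at 0. By base mean, *Vil1* at 16.8 was above *Lgals4* at 13.3. The part of any of these tissues in the galectin levels was not tested.

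**Figure D4:**
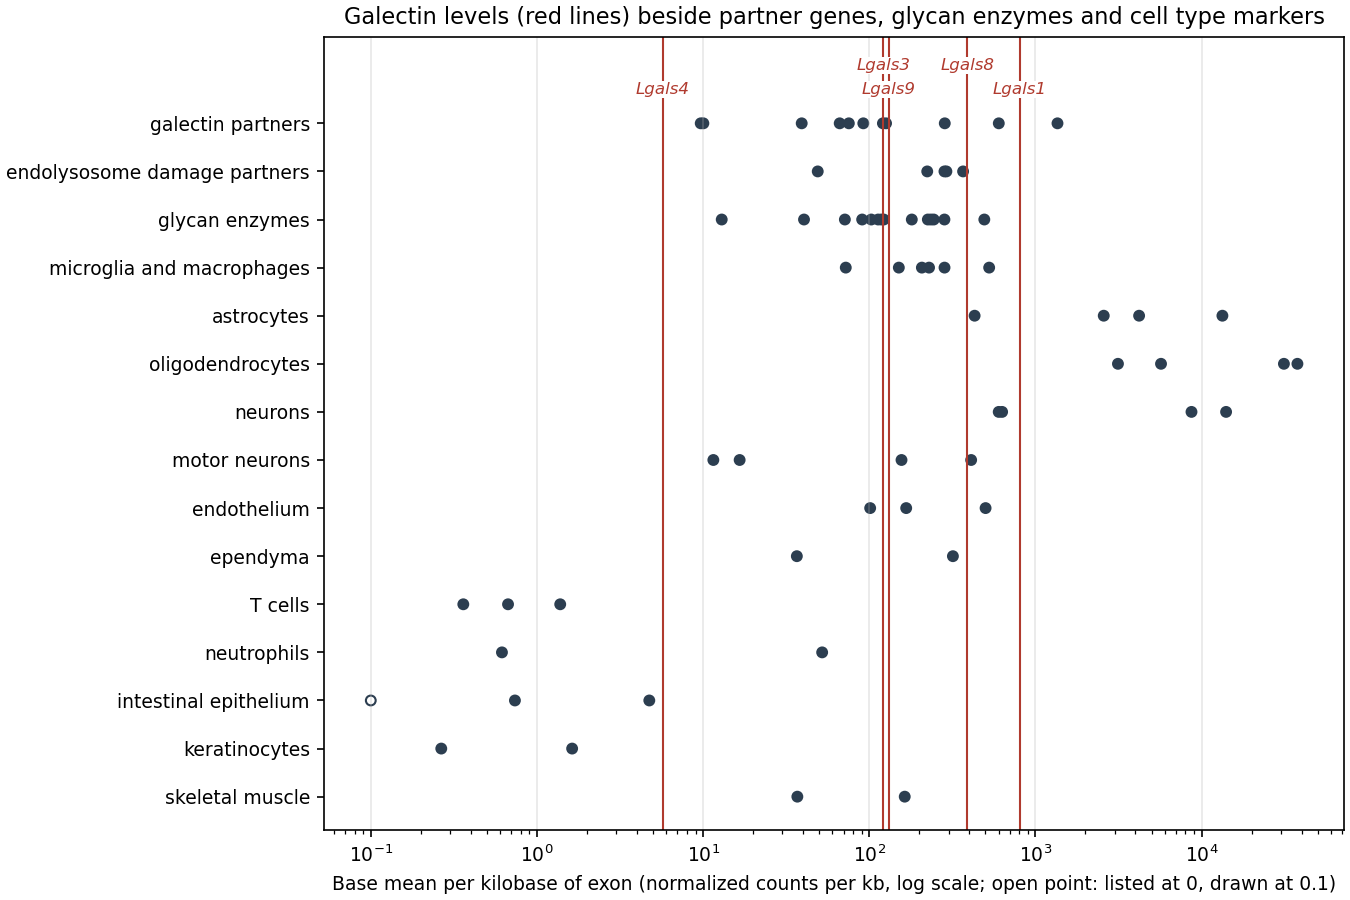
Base mean per kb of exon on a log scale for each gene of the partner lists, the glycan enzymes and the cell type markers (dark points, an open point for a gene listed at 0), with red lines at the 5 galectins. On this scale, *Lgals3* and *Lgals9* fall within the microglial, endothelial and partner ranges, and *Lgals1* near the top of the partner range. *Lgals4* falls below all partner genes and above the T cell markers and, on this scale, the intestinal markers.

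Genes whose proteins are known to bind galectins or to act with them outside the cell were also measured. All 11 were above *Lgals4* per kb of exon, 4 were above *Lgals3*, 3 above *Lgals9*, 2 above *Lgals8* and 1 above *Lgals1*. By base mean, *P4hb* at 3884, *Itgb1* at 2456, *Nrp1* at 901 and *Lgals3bp* at 811 were above *Lgals1* at 725, and the other partners were below it. The highest was *P4hb*, a protein disulfide isomerase that galectin-9 binds on T cells, at 1358 normalized counts per kb, and next came the integrin gene *Itgb1* at 602. The lowest were *Tlr4*, a receptor of the innate immune system, at 9.67, and *Ptprc*, the gene of the leukocyte surface protein CD45 that galectin-1 binds, at 10.04. Between these extremes, the microglial receptor gene *Trem2* was at 66.4 normalized counts per kb. The phagocytic receptor gene *Mertk*, at 126 normalized counts per kb, lay between *Lgals3* at 122 and *Lgals9* at 131. By base mean, *Trem2* at 328 and *Mertk* at 547 were above both *Lgals3* at 226 and *Lgals9* at 281. *Havcr2*, which encodes the galectin-9 receptor Tim-3, was at 39.2, or 0.299 times the level of *Lgals9*. The low place of *Ptprc* depended on its 18313 bases of merged exon. By base mean, *Ptprc* at 184 was above *Havcr2* at 107, while *Tlr4* at 53.8 was still the lowest.

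Galectins 3 and 8 bind sugars on broken endolysosomes and help to recruit autophagy proteins there. Of 5 genes listed for that response, 4 were above both *Lgals3* and *Lgals9* per kb of exon and 0 were above *Lgals8*. *Tax1bp1*, an autophagy receptor gene, was highest at 367 normalized counts per kb of exon, close below *Lgals8* at 389, and *Calcoco1* was at 291. By base mean, *Tax1bp1* at 3667 and *Calcoco1* at 1669 were above *Lgals8* at 1435. *Calcoco1* is a relative of the autophagy receptor gene whose product binds galectin-8, and not that gene. *Optn*, which like *Tbk1* is also mutated in amyotrophic lateral sclerosis, was at 223, and *Trim16*, whose protein works with galectin-3, was lowest at 49.0.

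Galectin ligands are built by enzymes that branch and extend glycans and are masked by certain sialyltransferases. Per kb of exon, all 14 enzyme genes of this kind were above *Lgals4*, 7 were above *Lgals3*, 6 above *Lgals9*, 1 above *Lgals8* and 0 above *Lgals1*. These counts changed by base mean. *St3gal3* at 1363, *Mgat1* at 1341, *Mgat4a* at 1167, *St6gal1* at 886 and *Mgat5* at 734 were then above *Lgals1* at 725. All 14 were below *Lgals8* at 1435, and only *Gcnt1* and *B4galt1* were below *Lgals3* at 226. The highest were the sialyltransferase gene *St3gal3* at 493 and *Mgat1*, which starts the branching of N-glycans, at 283 normalized counts per kb of exon. The lowest were *Gcnt1*, which branches O-glycans, at 12.9 and the galactosyltransferase gene *B4galt1* at 40.5. *St6gal1*, whose product caps galactose in a way that blocks the binding of several galectins, was at 180, while *Mgat5*, which makes branches that galectin-3 favours, was at 71.3 normalized counts per kb. Per kb of exon, all 14 thus lay between *Lgals4* and *Lgals1*.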

How the data were processed

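RNA from the spinal cord of 5 WT and 5 SOD1 G93A females was sequenced as stranded paired-end libraries with reads of 100 bases. According to the paper and the submitters' processing notes, the authors filtered reads with Fastp, aligned them to mm10 with HISAT2 2.1.0, counted uniquely mapped reads with featureCounts 2.0.2 and compared the groups with DESeq2. The signal used here is the base mean deposited by the authors, the mean over all libraries of counts divided by size factors. The other 5 columns deposited hold the authors' own comparison (log2 fold change, standard error, Wald statistic, p-value, adjusted p-value) and were not used, so that no test between genotypes was made.

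Each base mean was divided by the merged exon length of the gene in GENCODE M21 (GRCm38), which had a length for 24310 of the 25232 symbols (96.3%), joined by exact symbol. Annotation and counting used by the authors may differ. Orders against the partner, enzyme and marker lists were set per kb of exon, and some differed by base mean. A percentile is the percentage of genes below a value, among genes with a base mean above 0. All values are descriptions. The members and lists were chosen with earlier results of these data known, and the highest 2 and lowest 2 genes of each partner list are named by rule, while *Trem2*, *Mertk*, *Havcr2*, *St6gal1*, *Mgat5* and the markers named were picked for their known roles. One marker list is not reported here. The length and percentile steps were tested on simulated data. Python 3.11.15, pandas 2.3.3, numpy 2.4.6, Biopython 1.88 and matplotlib 3.10.9 were used.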

Additional observations from a re-analysis of the deposited data

How the results depend on the processing

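The levels have no spread between mice, and the changes below come from another length or another set of genes. The ratio of the highest to the lowest galectin was 140 per kb of exon, 132 per kb of coding sequence, 130 per kb of the transcript with the longest coding sequence, 94.6 per kb of the longest coding transcript and 108 by base mean. By base mean and per kb of the transcript with the longest coding sequence, *Lgals8* was number 1 and *Lgals1* number 2, and per kb of coding sequence *Lgals3* was number 3 and *Lgals9* number 4, while *Lgals4* was last under all 5 scales. Shares of the 5 galectins by base mean were 27.1% for *Lgals1*, 8.44% for *Lgals3*, 0.495% for *Lgals4*, 53.5% for *Lgals8* and 10.5% for *Lgals9*. Per kb of the transcript with the longest coding sequence they were 36.2%, 6.37%, 0.383%, 49.9% and 7.07% in that order, and per kb of the longest coding transcript 51.6%, 9.08%, 0.545%, 28.7% and 10.1%. As shares of the level per kb of exon of all galectin genes, *Lgals3bp* left out, they were 43.0%, 6.52%, 0.307%, 20.8% and 7.03% in the same order. The percentile of the base mean was 68.8 for *Lgals1*, 48.9 for *Lgals3*, 25.7 for *Lgals4*, 81.6 for *Lgals8* and 51.9 for *Lgals9*. Over all genes of the table these became 74.0, 57.5, 38.3, 84.7 and 60.0, and with genes under a base mean of 10 left out they became 58.9, 32.6, 2.14, 75.8 and 36.6. By level per kb of exon they were 93.9, 62.6, 24.1, 85.7 and 64.1. The coding length from GENCODE and both transcript lengths were chosen after seeing the data, and the one planned from RefSeq proteins was not run. No paired analysis was possible because the table holds 1 pooled value for each gene, and no replicate could be left out for the same reason.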
